A study of Homo sapiens with 24 samples.

Results

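The MYC, MAX and MXD network is the set of basic helix-loop-helix leucine zipper proteins that share the E-box as their DNA element. Its 10 members here, MYC, MYCN, MAX, MXD1, MXD3, MXD4, MXI1, MNT, MLX and MGA, were taken by gene name from a table of 58735 genes, and each name stood on 1 row. RNA had been sequenced from Nalm6 and Sem, established human lines of acute lymphoblastic leukaemia from B cell precursors, the latter known for a KMT2A rearrangement. Each line was left untreated, given 10 µM ibrutinib (an inhibitor of BTK) for 24 h, given asparaginase (an enzyme that removes asparagine from the medium) for 24 h, or given both drugs at once. That made 8 groups of 3 libraries: Nalm6 untreated, ibrutinib, asparaginase and combination, and the same 4 in Sem. For asparaginase the labels give both 1 IU/ml (characteristics) and 0.5 IU/ml (treatment protocol), and the hour at which untreated cells were harvested is not given. Separate cultures are not described either, so what the p-values measure is how far these libraries scatter, and that scatter may be technical.

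MYC and MYCN bind DNA and activate transcription only as a dimer with MAX. The MXD proteins, MXI1 and MNT dimerise with the same MAX and bring SIN3 and histone deacetylases to the same E-boxes, so they antagonise MYC. MLX pairs with MLXIP (MondoA) or MLXIPL in a glucose-sensing arm of the network, and MGA joins MAX inside a repressive polycomb complex. In B cell precursors MYC drives growth and ribosome production, and in leukaemias of this lineage its RNA is often high.

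The E-box that these dimers read, CACGTG, is its own reverse complement. It was found in the promoter windows (250 bases before the transcription start to 50 after it, RefSeq, GRCh38.p14) of 3 of the 9 members other than MYC that could be looked up, namely MXD4, MNT and MLX. Of 35116 promoters in the table, 7.26% held it, and of 27305 genes 8.77% had at least 1 promoter with it. The 3 member sites and that of ARRDC4, a target of the MLX arm described further on, are shown because they place a network element next to genes of the network, with the E-box in capitals:
MXD4, chr4:2262322-2262359, minus strand: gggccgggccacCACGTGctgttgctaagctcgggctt
MNT, chr17:2401228-2401273, minus strand: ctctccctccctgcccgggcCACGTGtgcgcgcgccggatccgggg
MLX, chr17:42567030-42567075, plus strand: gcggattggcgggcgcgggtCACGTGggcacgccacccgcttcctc
ARRDC4, chr15:97960473-97960518, plus strand: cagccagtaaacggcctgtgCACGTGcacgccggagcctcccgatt
The motif began 238 bases upstream of the start in MXD4, 193 in MNT, 50 in MLX and 210 in ARRDC4. Of the 20 metabolic genes induced by MYC that are described further on, 17 had a promoter in the table and 9 of those held the E-box. In the other lists of MYC-induced genes it was 7 of 15 nucleolar, 6 of 11 cell cycle and 1 of 8 translation and RNA genes. Of the MYC-repressed genes 2 of 7 held it, of the corepressors 1 of 16, of the coactivators 2 of 12 and of the stability genes 2 of 17. These are matches of letters and no binding was measured.

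A second element was searched because MXI1 and TXNIP are known targets of forkhead factors: GTAAACA or its reverse complement TGTTTAC, which does not overlap the E-box in these windows. It stood in 3.42% of all promoters, and 4.19% of 27305 genes had at least 1 promoter with it. TXNIP has 2 listed starts, and of the 9 members other than MYC 1 held the element. MXI1 was the member that held it, at 1 of its 3 listed starts, and TXNIP held it as well; the match is in capitals:
MXI1, chr10:110210060-110210106, plus strand: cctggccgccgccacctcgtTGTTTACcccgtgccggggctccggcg
TXNIP, chr1:145996677-145996723, minus strand: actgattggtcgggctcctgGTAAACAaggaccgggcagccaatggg

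Libraries held 15032809 to 18136218 reads assigned to genes. The deposited FPKM values (fragments scaled by gene length and a library size) of 1 or more had lost their decimal point and were restored first. The library size they imply was not the count of assigned reads but 0.919 to 1.093 times it. That factor was 0.982 to 0.995 in untreated Nalm6, 1.072 to 1.093 there with asparaginase or both drugs, and 0.919 to 0.94 in untreated Sem. Its part in the changes was not tested by itself. Rescaling to a constant sum, given further on, does not depend on it. For the members the probability of the chosen place was at least 0.9996, under a rule that favoured small drug effects. Levels below are FPKM, which is a scale per gene length, and changes are log2 ratios of FPKM + 1 from limma, two-sided, with p adjusted over all genes tested in the comparison; "called" means an adjusted p under 0.05. In the Nalm6 combination group, library 1 stood apart, with r of 0.9788 and 0.9779 across genes against its mates where they reached 0.9862 with each other. Library 1 of the Nalm6 asparaginase group did so less far (0.9817 and 0.9833, against 0.9864), and these libraries deviated from their group means together (r of 0.374 across genes). Same-numbered libraries of those 2 groups did so in all 3 pairs (0.374, 0.106 and 0.182), so the step between them was also fitted in pairs. Differently numbered libraries did so too, asparaginase 2 with combination 3 (0.115) and asparaginase 3 with combination 2 (0.108). The numbers therefore need not mark a pairing. Of 10 markers of B cell precursors, 10 reached the expression filter in Nalm6 and 8 in Sem, where DNTT and RAG1 did not; 5 of 5 KMT2A-leukaemia markers did so in Sem and 0 of 5 in Nalm6. In bulk RNA, fewer cells of a kind and less RNA per cell cannot be told apart.

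Of the 10 members, 9 reached 1 FPKM in at least 3 libraries and were tested, and MYCN did not. In Nalm6, ibrutinib alone changed 1 of the 9, MXI1, which rose; over all 13237 genes tested 12.4% were called, 4.97% higher and 7.46% lower. Asparaginase changed 8 of the 9 members in Nalm6, 6 higher and 2 lower, where 56.3% of all genes were called, 28.2% higher and 28.0% lower. The combination called the same count, 8, with 6 higher and 2 lower, where 63.7% of all genes were called (32.4% higher, 31.3% lower). The member left over in both was MGA. The median change of the members was 0.25 with asparaginase and 0.27 with the combination, beside 0.02 for all genes in each.

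In Sem, ibrutinib changed 5 of the 9 members, 3 higher and 2 lower, beside 41.5% of the 13417 genes tested (20.3% higher, 21.3% lower). Asparaginase changed 4, 3 higher and 1 lower, beside 26.4% of all genes (11.4% higher, 15.1% lower); without untreated library 3 or asparaginase library 1 the count was 2. The combination changed 6, 4 higher and 2 lower, beside 52.8% (26.6% higher, 26.3% lower). The medians of the members were 0.14, 0.07 and 0.14 for the 3 treatments, where those of all genes were 0.01, -0.004 and 0.02.

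**Figure D1:**
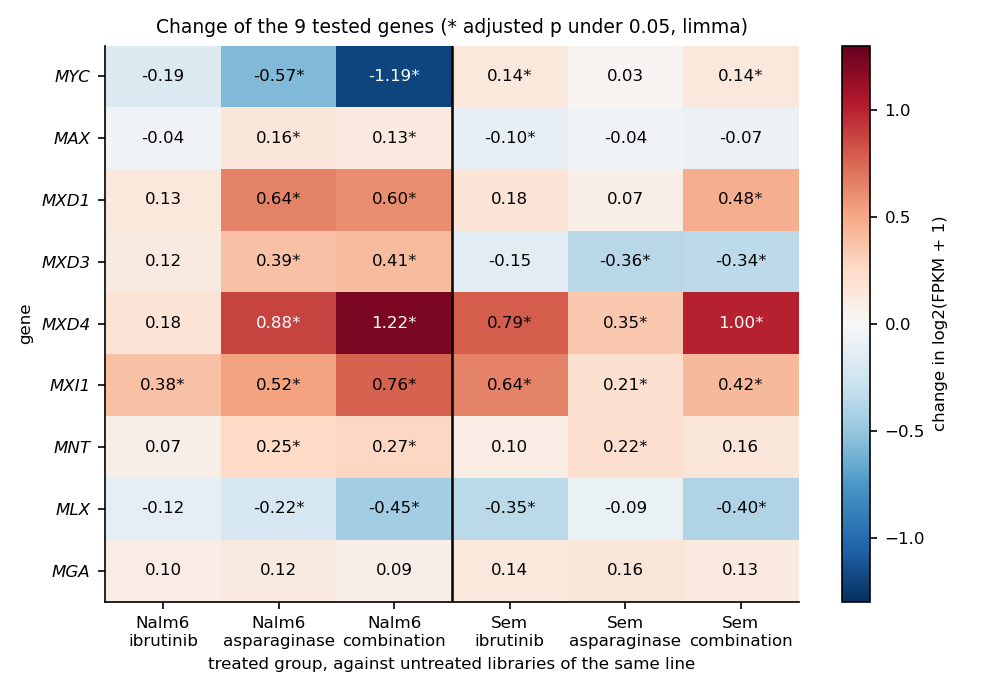
Change in log2(FPKM + 1) for the 9 tested members (rows) in each treated group against the untreated libraries of its line (columns), as colour (blue lower, red higher) and value; an asterisk marks an adjusted p under 0.05 in limma. MYC is blue in the Nalm6 columns, down to -1.19 with the combination, and pale red in Sem, and MXD4 and MXI1 are red in all 6 columns.

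MYC (chr8:127735434-127741434, plus strand) was the most abundant member; it fell in Nalm6 with asparaginase and with the combination, and rose in Sem with ibrutinib and with the combination. In untreated Nalm6 it stood at 341, 309 and 352 FPKM, a mean of 334 ± 22.3 (SD, n = 3). Ibrutinib gave 288, 303 and 289 FPKM, asparaginase 203, 238 and 234, and the combination 121, 164 and 155. No treated library reached the lowest untreated one, and the 4 groups did not overlap. The combination mean was 0.439 times the untreated mean and the asparaginase mean 0.674 times.

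MYC fell in Nalm6 by 0.57 on the log2 scale with asparaginase (SE 0.11, adjusted p = 0.000861) and by 1.19 with the combination (SE 0.11, adjusted p = 2.24e-06). Ibrutinib alone gave -0.19 (SE 0.11, adjusted p = 0.279), which did not pass. Adding ibrutinib to asparaginase lowered MYC by a further amount, -0.62 (SE 0.11, adjusted p = 0.00192). Library 1 of the combination had the lowest value; without it the combination change was -1.06 and the step from asparaginase -0.49, and both stayed called. Fitted in pairs by number over the 6 asparaginase and combination libraries, the step was -0.62 (adjusted p = 0.00268). With library 1 of both groups left out together, a choice made after seeing the data, the asparaginase change was -0.50 and the step -0.56, and both were called.

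In Sem, untreated MYC lay at 155, 154 and 155 FPKM, a mean of 154 ± 0.626 (SD, n = 3). Ibrutinib gave 170, 169 and 172 FPKM, asparaginase 159, 157 and 156, and the combination 170, 171 and 168. Every treated library was above every untreated one, with asparaginase by a gap that is not large beside counting error. The ibrutinib and combination groups overlapped each other. MYC rose by 0.14 with ibrutinib (SE 0.03, adjusted p = 0.00132) and by 0.14 with the combination (SE 0.03, adjusted p = 0.00104), which is 1.1 times the untreated mean. When the spread of both lines was pooled in 1 fit, these small rises lost their call (adjusted p = 0.189 and 0.178). With asparaginase the change was 0.03, with a 95% interval from -0.03 to 0.09 and an adjusted p of 0.477; rescaling each library to a constant FPKM sum made it 0.12 and called.

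Ranked over the 8 groups, MYC was highest in untreated Nalm6, then Nalm6 with ibrutinib and Nalm6 with asparaginase, each apart from the next. The Sem groups with ibrutinib and with both drugs came next, then Sem with asparaginase. Untreated Sem and Nalm6 with both drugs, at 154 and 147 FPKM, overlapped at the bottom. Between 6195 and 17252 reads per library lay behind these values, so counting error was small beside the steps between the Nalm6 groups. It was not small beside the gap between untreated Sem and Sem with asparaginase, with means of 154 and 157 FPKM.

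**Figure D2:**
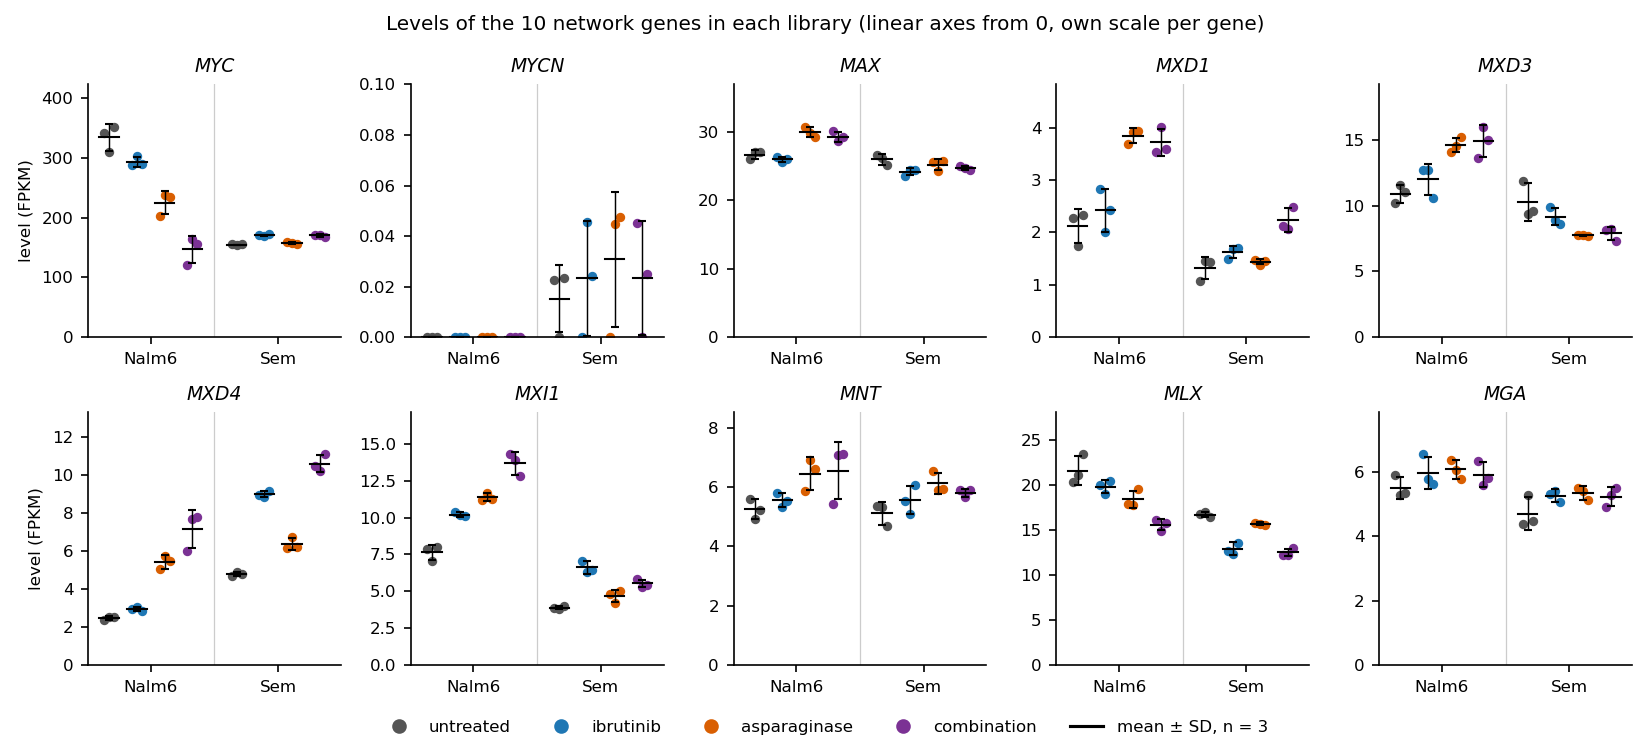
FPKM (y axes, linear from 0, own scale for each gene) of the 10 members in each of the 24 libraries (points), with the mean and SD of each group (horizontal bars and whiskers, n = 3), by line and coloured by treatment. MYC steps down from a mean of 334 to 147 FPKM across the Nalm6 groups and lies between 154 and 172 FPKM in every Sem library.

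MYCN (chr2:15940564-15947007, plus strand), the neural paralogue of MYC, was at or under the limit of detection. No read was assigned to it in any of 12 Nalm6 libraries, which allows up to 3 reads or 0.0604 to 0.0763 FPKM per library. In Sem 12 reads in all fell in 8 of 12 libraries, at most 2 in a library. MYCL, the other paralogue, which is outside the member list, ran from 0.127 to 0.65 FPKM and was not tested. In Sem it stood at 0.556, 0.589 and 0.65 FPKM untreated and at 0.313, 0.288 and 0.159 with asparaginase. With ibrutinib it stood at 0.344, 0.34 and 0.51 and with both drugs at 0.231, 0.439 and 0.243, also below every untreated library. These values rest on 11 to 54 reads per library over the series.

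MAX (chr14:65006174-65102695, minus strand), the partner shared by MYC, the MXD proteins, MXI1, MNT and MGA, moved little in either line. Untreated Nalm6 had 26.0, 27.1 and 27.1 FPKM, asparaginase 30.8, 29.9 and 29.3, and the combination 30.1, 28.7 and 29.3. Both treated groups lay above the untreated one, and ibrutinib alone, at 26.3, 25.6 and 26.1, overlapped it. MAX rose by 0.16 with asparaginase (SE 0.04, adjusted p = 0.00417) and by 0.13 with the combination (adjusted p = 0.012). In Sem it went from 26.7, 26.2 and 25.2 FPKM to 23.6, 24.5 and 24.5 with ibrutinib, a fall of 0.10 (adjusted p = 0.0351). That direction turned to 0.02 under quantile normalisation, and the call was lost when any of 5 of the 6 libraries was left out. Sem asparaginase (mean 25.2) and combination (mean 24.7) gave -0.04 and -0.07, neither called, and both were above 0 after rescaling to a constant sum (0.04 and 0.01) and after quantile normalisation (0.03 and 0.09, the latter with an adjusted p of 0.0479). MYC per MAX, as a ratio of FPKM, went from 12.5 to 5.01 over the Nalm6 groups and lay between 5.93 and 7.03 in Sem.

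The 5 antagonists that pair with MAX did not move as a block. MXD1 (chr2:69897688-69942945), an antagonist tied to differentiation, was the lowest in both untreated lines. In Nalm6 it went from 2.27, 1.75 and 2.33 FPKM to 3.68, 3.92 and 3.94 with asparaginase and 3.53, 4.02 and 3.6 with the combination. Those groups did not overlap the untreated one, and ibrutinib (2.82, 2.01, 2.43) did. The rises were 0.64 (SE 0.10, adjusted p = 0.000243) and 0.60 (adjusted p = 0.00028).

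In Sem, MXD1 rose with the combination, from 1.08, 1.46 and 1.43 FPKM to 2.12, 2.07 and 2.49, by 0.48 (SE 0.09, adjusted p = 0.000874). Neither drug alone changed it by the test: ibrutinib gave 1.49, 1.68 and 1.7 FPKM (0.18, adjusted p = 0.129) and asparaginase 1.47, 1.38 and 1.46 (0.07, adjusted p = 0.587). The asparaginase value was -0.003 when untreated library 1 was left out. As few as 117 reads per library were behind MXD1.

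MXD3 (chr5:177301461-177312757, minus strand), the family member found in proliferating cells, was the antagonist whose called changes had opposite signs in the 2 lines. In Nalm6 it rose from 10.2, 11.6 and 11 FPKM to 14.1, 14.5 and 15.2 with asparaginase (0.39, SE 0.08, adjusted p = 0.00154) and to 13.6, 16 and 15 with the combination (0.41, adjusted p = 0.000818). In Sem it fell from 11.9, 9.36 and 9.55 FPKM to 7.74, 7.75 and 7.72 with asparaginase, by 0.36 (SE 0.08, adjusted p = 0.00709), and to 8.12, 8.22 and 7.34 with the combination, by 0.34 (adjusted p = 0.00446). All 4 of these groups were clear of their untreated libraries. Ibrutinib alone gave overlapping values in Nalm6 (12.7, 12.7, 10.6) and in Sem (9.86, 8.93, 8.62).

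The exons of MXD3 overlap those of PRELID1 on the opposite strand over 1158 bases, 22.5% of its length, and those of RAB24 on its own strand over 926 bases (18%). Whether the counting used strand is not stated. PRELID1, at a mean of 79.9 FPKM, changed by -0.71 and -0.997 in Nalm6 with asparaginase and the combination, opposite to MXD3, and by -0.16 and -0.87 in Sem. RAB24, at 4.29 FPKM, changed by 0.75 and 0.79 in Nalm6 and by 0.16 and -0.34 in Sem. Their part in the MXD3 values was not tested.

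MXD4 (chr4:2247432-2262294, minus strand), an antagonist of quiescent and differentiating cells, rose in both lines and had the largest called rise of any member in each. In Nalm6 it stood at 2.36, 2.53 and 2.55 FPKM untreated, 5.04, 5.75 and 5.48 with asparaginase, and 6.01, 7.7 and 7.78 with the combination. Ibrutinib alone gave 2.95, 3.05 and 2.82, above all untreated libraries, at 0.18 (SE 0.08, adjusted p = 0.193). The rise with asparaginase was 0.88 (SE 0.08, adjusted p = 7.12e-06) and with the combination 1.22 (SE 0.08, adjusted p = 3.16e-07), or 2.89 times the untreated mean.

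In Sem, MXD4 lay higher with ibrutinib than with asparaginase, a difference that was not tested. Untreated libraries had 4.69, 4.89 and 4.8 FPKM, and ibrutinib gave 8.98, 8.86 and 9.18, a rise of 0.79 (SE 0.04, adjusted p = 4.51e-07). Asparaginase gave 6.17, 6.72 and 6.24 FPKM (0.35, SE 0.04, adjusted p = 0.000196), and the combination 10.5, 10.2 and 11.1 (1.00, SE 0.04, adjusted p = 2.6e-08). The 4 Sem groups did not overlap one another. The combination exceeded ibrutinib alone by 0.21 (adjusted p = 0.00879) and asparaginase alone by 0.65 (adjusted p = 1.11e-06).

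MXI1 (chr10:110207605-110287365, plus strand), also called MXD2, was called in all 6 comparisons against untreated, as MXD4 was in 5 of them. Nalm6 went from 7.85, 7.09 and 7.98 FPKM to 10.4, 10.2 and 10.1 with ibrutinib, 11.2, 11.7 and 11.3 with asparaginase and 14.3, 13.9 and 12.8 with both. The 4 groups were separate, and the rises were 0.38 (adjusted p = 0.00167), 0.52 (adjusted p = 1.3e-05) and 0.76 (adjusted p = 3.82e-07), each with an SE of 0.05. It was the single member that ibrutinib alone changed in Nalm6.

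In Sem the order was different. MXI1 went from 3.88, 3.78 and 3.98 FPKM to 7.09, 6.28 and 6.48 with ibrutinib (0.64, SE 0.06, adjusted p = 1.92e-05), and the combination, at 5.84, 5.32 and 5.44, was lower than that (0.42 above untreated, adjusted p = 0.000191). Asparaginase alone gave 4.81, 4.2 and 5.0 FPKM (0.21, adjusted p = 0.0275), a call that was lost in 5 of 6 repeats with 1 library left out. The combination lay 0.22 below ibrutinib alone (adjusted p = 0.0428), with no overlap, but that call was lost whichever of the 6 libraries was left out. An antisense transcript, AL360182.2, overlaps 205 exon bases of MXI1 (4.45%) and rose by 0.80 and 1.305 in Nalm6 with asparaginase and the combination; its part was not tested.

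MNT (chr17:2384060-2401118, minus strand), the antagonist present in cycling and resting cells alike, moved little. Nalm6 untreated had 5.6, 4.92 and 5.22 FPKM, asparaginase 5.85, 6.92 and 6.59, and the combination 5.43, 7.09 and 7.1, of which the first lay inside the untreated range. The rises of 0.25 (SE 0.09, adjusted p = 0.0355) and 0.27 (adjusted p = 0.0259) were called, but neither was without the expression filter (adjusted p = 0.0775 and 0.0558), and each lost its call in 4 of 6 repeats with 1 library left out. Without library 1 of the combination the latter became 0.38. In Sem, MNT rose with asparaginase from 5.37, 5.32 and 4.68 to 6.53, 5.9 and 5.94 FPKM, by 0.22 (SE 0.07, adjusted p = 0.0289), and that call was lost without untreated library 3 (adjusted p = 0.108) or asparaginase library 1 (adjusted p = 0.106). The combination, at 5.89, 5.65 and 5.89 FPKM, gave 0.16 (adjusted p = 0.0645).

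Summed over the 5 antagonists (MXD1, MXD3, MXD4, MXI1 and MNT), Nalm6 held 28.4 ± 0.635 FPKM untreated, 33.2 ± 1.59 with ibrutinib, 41.7 ± 1.61 with asparaginase and 46.0 ± 2.95 with both (SD, n = 3). MYC per antagonist, the ratio of MYC FPKM to that sum, was 12.1, 11.1 and 12.1 in the untreated Nalm6 libraries and 2.82, 3.36 and 3.36 with the combination. Ibrutinib (8.85 ± 0.471) and asparaginase (5.39 ± 0.255) lay between, and the 4 groups were separate.

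Sem began lower, with 6.09 ± 0.308 MYC per antagonist untreated, and moved little: 5.33 ± 0.171 with ibrutinib, 5.97 ± 0.0685 with asparaginase and 5.29 ± 0.125 with both. There the antagonist sum rose with ibrutinib, from 25.4 ± 1.36 to 31.9 ± 1.05 FPKM, beside a small rise of MYC. These sums and ratios describe RNA and carry no test. MXD3 was the largest share of the sum in 7 groups, 38.5% in untreated Nalm6, and MXD4 in Sem with both drugs, at 33.1% against 18.9% untreated.

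**Figure D3:**
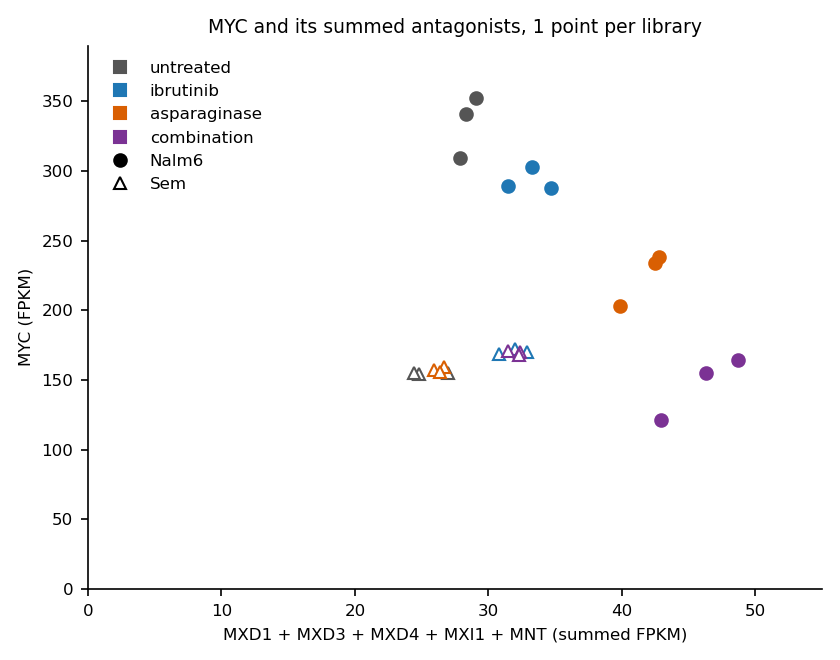
MYC FPKM (y axis) against the summed FPKM of MXD1, MXD3, MXD4, MXI1 and MNT (x axis), 1 point per library, coloured by treatment, with filled circles for Nalm6 and open triangles for Sem. The Nalm6 group means run from 28.4 FPKM of antagonists and 334 of MYC to 46.0 and 147, and the Sem libraries spread along the x axis with MYC between 154 and 172 FPKM.

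Within Nalm6, MXD4 and MXI1 ran against MYC over the 12 libraries (Pearson r of -0.89 and -0.88), and within Sem they ran with it (0.94 and 0.9). MLX did the reverse, with 0.9 in Nalm6 and -0.96 in Sem. The 12 points share 4 treatments and their library scaling, so these values describe the group pattern and no more. Among 7277 genes expressed in both lines, those most like MYC in both were DERL3 (0.97 and 0.96), TBC1D14, MSI2, ESYT2 and PROB1. DERL3 averaged 9.76, 9.1, 6.58 and 5.41 FPKM in untreated, ibrutinib, asparaginase and combination Nalm6 and 9.21, 17.6, 11 and 18.3 in Sem. The most opposite were SLC2A3 (-0.96 and -0.95), a glucose transporter, then CD164, PPP1R18, SYPL1 and DUSP6, a phosphatase that switches off ERK. SLC2A3 averaged 1.53, 1.54, 3.4 and 5.08 FPKM in Nalm6 and 8.0, 5.25, 7.97 and 5.21 in Sem, in the same order of groups.

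MLX (chr17:42567068-42573239, plus strand), the hub of the glucose-sensing arm, fell in both lines. In Nalm6 it went from 20.3, 21.1 and 23.4 FPKM to 17.9, 17.8 and 19.5 with asparaginase and 16.1, 14.9 and 15.8 with both, clear of the untreated libraries. The falls were 0.22 (SE 0.06, adjusted p = 0.00986) and 0.45 (SE 0.06, adjusted p = 6.23e-05); the first was no longer called after rescaling to a constant sum (-0.07, adjusted p = 0.323). Ibrutinib alone gave 20, 19 and 20.4 FPKM and -0.12 (adjusted p = 0.229).

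In Sem, MLX fell with ibrutinib from 16.8, 17.0 and 16.4 FPKM to 12.7, 12.3 and 13.6, by 0.35 (SE 0.04, adjusted p = 6.74e-05), and with the combination to 12.2, 12.2 and 13.0, by 0.40 (adjusted p = 1.45e-05). Asparaginase alone gave 15.8, 15.7 and 15.5 FPKM, below all untreated libraries, at -0.09 (adjusted p = 0.154). PSMC3IP lies on the opposite strand over 770 exon bases of MLX (18.1%) and changed by -0.21 and -0.54 in Nalm6 with asparaginase and the combination and by -0.19 and -0.22 in Sem with ibrutinib and the combination; its part in the MLX values was not tested.

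Of the partners of MLX, MLXIPL was represented by 1 read in the series. MLXIP (chr12:122078722-122147347), which senses glucose with MLX, rose in Nalm6 from 12.9, 10.9 and 11.7 FPKM to 16.6, 18.5 and 18 with asparaginase (0.55, SE 0.08, adjusted p = 0.000171) and 22.8, 26.1 and 27.4 with both (1.04, adjusted p = 7.52e-07). Neither of these groups overlapped the untreated one. With ibrutinib, at 15.2, 14.2 and 13.2 FPKM, it gave 0.25 (adjusted p = 0.0704), a value that limma-voom called (adjusted p = 0.0232). In Sem it stood between 6.37 and 7.7 FPKM in all 12 libraries and rose with ibrutinib by 0.15 (adjusted p = 0.0247), a call lost without untreated library 3 (adjusted p = 0.0737) or ibrutinib library 3 (adjusted p = 0.0978), under quantile normalisation (adjusted p = 0.0903), with the gene length trend removed (adjusted p = 0.0673) and with both lines in 1 fit (adjusted p = 0.0857).

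TXNIP, an inhibitor of glucose uptake and the best known target of MLXIP with MLX, rose with asparaginase in both lines. Nalm6 went from 15.5, 15.9 and 14.8 FPKM to 50.4, 47.5 and 48.2 (1.60, adjusted p = 5.32e-09) and stood at 44.3, 38.0 and 40.7 with both drugs (1.35, adjusted p = 6.26e-09). Sem went from 17.0, 17.3 and 19.6 to 28.9, 27.4 and 30.6 (0.66, adjusted p = 0.000116), but fell with ibrutinib to 14.4, 11.5 and 13.3 (by 0.44, adjusted p = 0.000939) and stood at 14.8, 14.6 and 15.5 with both. That last fall, of 0.25 (adjusted p = 0.0172), was not called after rescaling to a constant sum (adjusted p = 0.0802), nor without untreated library 3 or combination library 2. ARRDC4, the second such target, had the same signs for asparaginase (0.68 in Nalm6, adjusted p = 0.000243, and 0.43 in Sem, adjusted p = 0.023) and for ibrutinib in Sem, where it fell by 0.44 (adjusted p = 0.0123), at levels of 0.254 to 2.99 FPKM. Its rise in Sem was not called without untreated library 1 (adjusted p = 0.0674) or library 2 (adjusted p = 0.0586). Of these 2 targets, 1 instead of 2 was called higher there with a pseudocount of 0.1 and under quantile normalisation. Unlike TXNIP, ARRDC4 was not called in the Nalm6 combination. It stood there at 1.36, 1.79 and 1.39 FPKM, overlapping the untreated 1.14, 1.35 and 1.69.

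**Figure D4:**
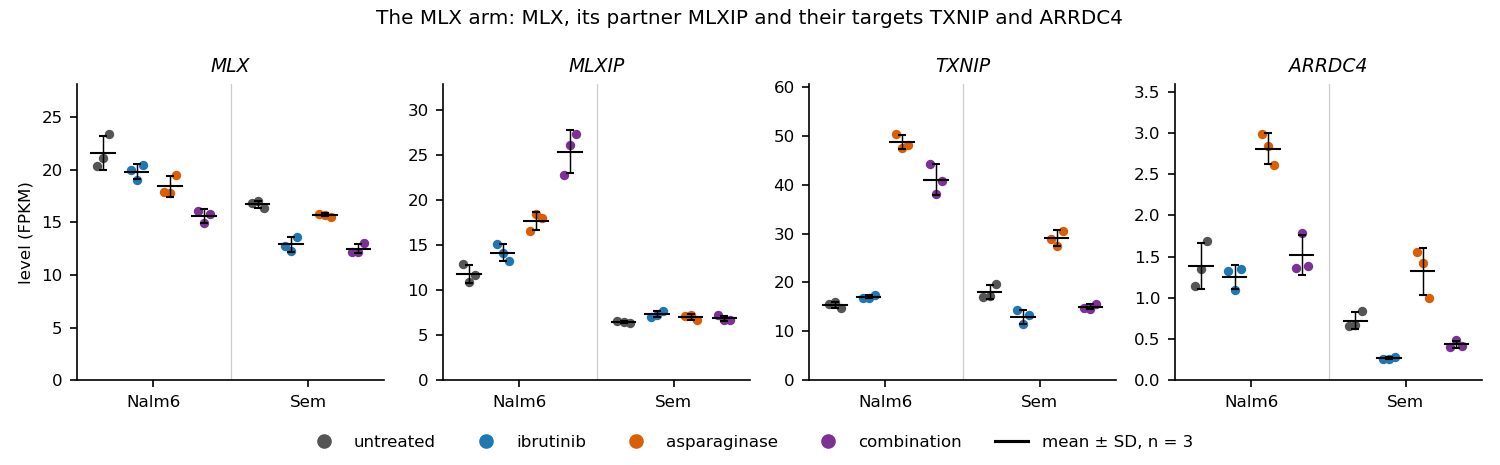
FPKM (y axes, linear from 0) of MLX, MLXIP, TXNIP and ARRDC4 in each library (points) with group means and SD (bars and whiskers, n = 3), by line and treatment. TXNIP is highest in the asparaginase group of each line, at 48.7 FPKM in Nalm6 and 29.0 in Sem, while MLX is highest in the untreated groups.

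MGA (chr15:41621224-41773081, plus strand), the giant scaffold that carries both a T-box and a MAX-binding domain, was called in none of the 6 comparisons with limma-trend. It ranged from 5.27 to 6.54 FPKM in Nalm6 and from 4.37 to 5.51 in Sem, and every treated group overlapped its untreated one. The changes ran from 0.09 to 0.16 and the adjusted p from 0.102 to 0.372. Limma-voom on the recovered reads called it in the 3 Sem comparisons, at 0.15 to 0.19, and so did limma-trend without untreated Sem library 2, at 0.20 to 0.23. After rescaling to a constant sum it was called in 5 of the 6, at 0.236 to 0.282.

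The combination was also set against each drug. In Nalm6 it differed from asparaginase alone in 4 members (21.8% of all genes were called), with MYC and MLX lower and MXD4 and MXI1 higher; without combination library 2 the count was 2, and without library 1 of both groups 3, with MXI1 at 0.20 (adjusted p = 0.0562). Against ibrutinib alone 7 members differed (57.1% of all genes), MYC and MLX lower and MAX, MXD1, MXD3, MXD4 and MXI1 higher. In Sem 5 members differed from asparaginase alone (38.3%): MYC, MXD1, MXD4 and MXI1 were higher and MLX lower. From ibrutinib alone 2 differed (12.1%), MXD4, which was higher, and MXI1, which was lower.

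A departure from additive effects was tested as the combination change minus the sum of both single changes. In Nalm6 it was called for 0 of 9 members (5.58% of all genes) by limma-trend. The value of MYC was -0.44 with a 95% interval from -0.77 to -0.11 and an adjusted p of 0.123; limma-voom called it (adjusted p = 0.0381), and so did the fit over both lines (adjusted p = 0.0191). In Sem it was called for 1 member (1.53% of all genes), MXI1, at -0.43 (SE 0.09, adjusted p = 0.0414), and the call was lost in 11 of 12 repeats with 1 library left out.

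The untreated lines differed in 6 of the 9 members, where 65.8% of 15116 genes were called. Sem had less MYC than Nalm6 (-1.11, adjusted p = 2.05e-10), less MXI1 (-0.82, adjusted p = 9.85e-11), less MXD1 (-0.42), less MLX (-0.35) and less MGA (-0.19), and more MXD4 (0.73, adjusted p = 6.1e-09). The call of MGA was lost without Nalm6 library 1, Sem library 1 or Sem library 3, and MAX, MXD3 and MNT were not called. Differences between the lines in the response to a drug were tested directly. For ibrutinib 3 members responded differently (13.7% of all genes), for asparaginase 6 (33.5%) and for the combination 4 (40.8%).

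The change of MYC was 0.60 higher in Sem than in Nalm6 with asparaginase (adjusted p = 0.00042) and 1.33 higher with the combination (adjusted p = 2.1e-08). MXD3 had the widest gap among the antagonists, with a change 0.75 lower in Sem for asparaginase (adjusted p = 5.93e-05) and 0.74 lower for the combination. MXD4 shifted by drug: its response in Sem was 0.61 larger to ibrutinib (adjusted p = 0.000152) and 0.53 smaller to asparaginase (adjusted p = 0.000191).

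Genes known to be induced by MYC were grouped in 4 lists by function. Of 19 tested nucleolar and ribosome synthesis genes in Nalm6, 19 fell with asparaginase and 19 with the combination, where 28.0% and 31.3% of all genes fell, at median changes of -0.71 and -1.24 beside 0.02 for all genes. NCL, the nucleolar histone chaperone, fell by 1.08 and 1.53, and NOP16, an assembly factor of the large ribosomal subunit, by 0.96 and 1.5. With ibrutinib alone 6 of the 19 fell, beside 7.46% of all genes, but 1 did after rescaling to a constant sum or quantile normalisation, and 1 to 6 did with 1 library left out.

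In Sem this list fell beside a MYC RNA that did not. Ibrutinib lowered 19 of 19 nucleolar genes (median -0.43) beside the rise of MYC of 0.14 and a fall in 21.3% of all genes. The combination lowered 19 of 19 (median -0.65) beside a fall in 26.3% of all genes. NOP16 fell by 0.63 (adjusted p = 1.93e-06), RRP12 by 0.60 and PES1 by 0.59 with ibrutinib. Asparaginase lowered 12 of 19, beside 15.1% of all genes. The 12 became 3 after rescaling to a constant sum and 2 under quantile normalisation, and 4 to 10 with 1 library left out. The response of this list differed between the lines in 19 of 19 genes for asparaginase and in 18 for the combination, each higher in Sem, and in 8 for ibrutinib, each lower in Sem. Of all 15116 genes, 33.5%, 40.8% and 13.7% differed for asparaginase, the combination and ibrutinib, in either direction. Higher in Sem were 2683 for asparaginase and 3354 for the combination, and 920 were lower for ibrutinib.

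**Figure D5:**
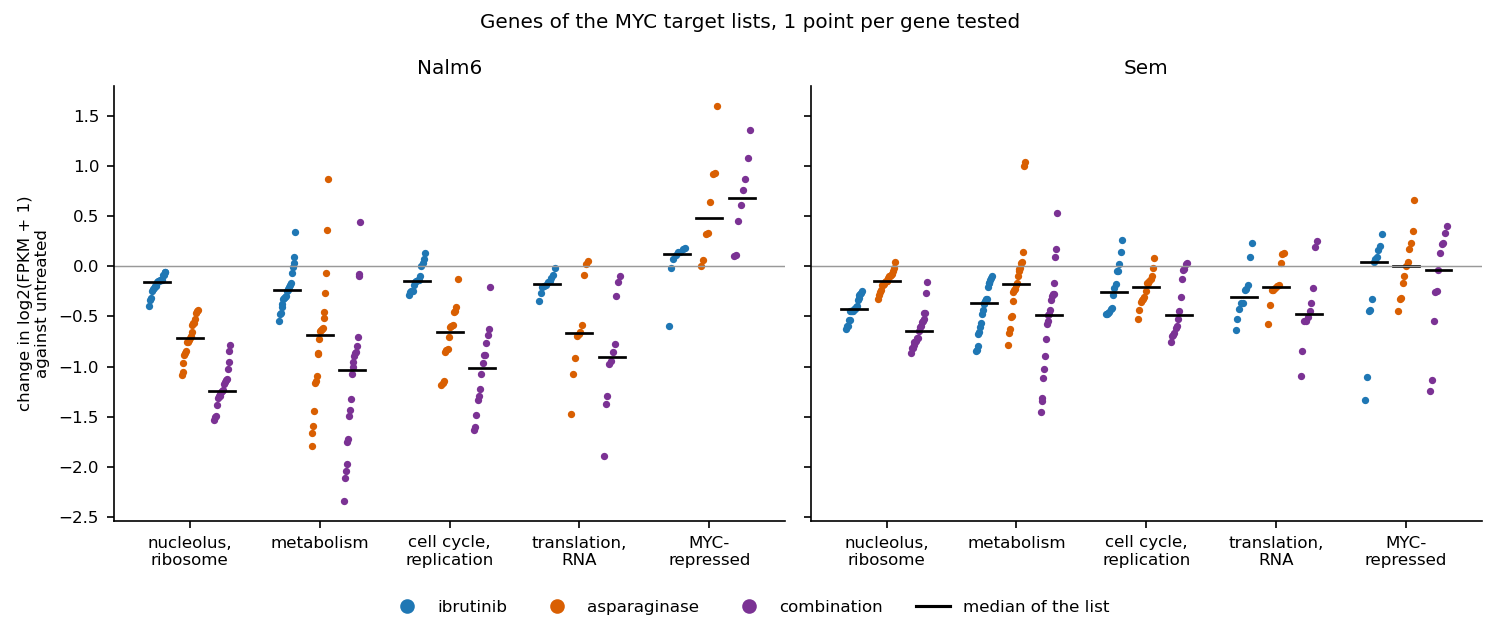
Change in log2(FPKM + 1) against untreated (y axis) for each tested gene (points, sorted by value) of the 5 MYC target lists (x axis), coloured by treatment, with the list median as a bar and 1 panel per line. The medians of the 4 induced lists lie below 0 in all 6 comparisons, and that of the repressed list reaches 0.68 with the combination in Nalm6 and -0.04 in Sem.

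Of the 20 metabolic genes, 13 fell with ibrutinib in Nalm6 (8 after rescaling to a constant sum, 5 under quantile normalisation). There 16 fell and 2 rose with asparaginase (median -0.69), and 17 fell and 1 rose with the combination (median -1.04). In Sem 18 fell with ibrutinib (median -0.37) and 17 with the combination, where 2 rose. Of all genes in Nalm6, 7.46% fell with ibrutinib, 28.0% with asparaginase (28.2% rose) and 31.3% with the combination (32.4% rose). Of all genes in Sem, 21.3% fell with ibrutinib and 26.3% with the combination (26.6% rose). LDHA, which makes lactate, fell in Nalm6 with asparaginase and the combination (-1.59 and -2.04) and in Sem by 0.83 with ibrutinib and 1.31 with the combination. SLC7A5, a large neutral amino acid transporter, and SHMT2, the mitochondrial serine enzyme, were the 2 that rose with asparaginase in both lines, SLC7A5 by 0.87 and 1.00 and SHMT2 by 0.36 and 1.04; in Sem the risers numbered 4 after rescaling to a constant sum and 6 under quantile normalisation. The Nalm6 values of TFRC and NME1 depend on how the decimal place is restored: with asparaginase they fell by 1.79 and 1.66, but came out at 1.47 and 1.51 when the place was set by the smallest spread, and the list count then became 4 higher.

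Cell cycle and replication genes fell together in Nalm6, 14 of 14 with asparaginase (median -0.66) and 14 of 14 with the combination (median -1.02). Of all genes in Nalm6, 28.0% and 31.3% fell. CDC25A, the phosphatase that opens S phase, fell by 1.18 and 1.48 and MCM4, a subunit of the replicative helicase, by 1.15 and 1.63. In Sem 9 fell and 2 rose with ibrutinib, TERT (0.26) and CDCA7 (0.14) (1 riser with both lines in 1 fit, 1 to 2 with 1 library left out), and 10 fell with the combination. Of 10 translation and RNA genes, 7 fell with asparaginase and 8 with the combination in Nalm6, and 7 fell in each of the 3 Sem comparisons (4 with asparaginase after rescaling to a constant sum). Of all genes in Sem, 21.3%, 15.1% and 26.3% fell with ibrutinib, asparaginase and the combination. HNRNPA1, a splicing protein, rose in Sem with ibrutinib, PABPC1, the poly(A)-binding protein, with asparaginase (0 risers without the filter), and both with the combination. EIF5A, an elongation factor, led in all of them, at -1.48 and -1.89 in Nalm6 and -0.63 with ibrutinib in Sem. EIF5A, NPM1, NME1, LDHA, GAPDH, HNRNPA1, PABPC1 and FTH1 have near-identical copies, and their values are uncertain to that extent.

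Of the genes known to be repressed by MYC, 6 of 8 tested in Nalm6 rose with asparaginase and 6 with the combination, where 28.2% and 32.4% of all genes rose, and 0 fell; CDKN1B, which encodes the cell cycle inhibitor p27, rose by 0.93 and 1.07. CDKN1A, which encodes p21, rose by 0.92 with asparaginase but fell by 0.60 with ibrutinib. In Sem ibrutinib raised 2 of 11 and lowered 5, where 20.3% of all genes rose and 21.3% fell; ITGAL, an integrin (-1.33), and CEBPA, a myeloid factor (-1.10), were among the latter. The 2 risers became 0 without the filter, 5 after rescaling to a constant sum and 0 to 2 with 1 library left out. The Sem combination raised 4 and lowered 4 of 11, beside 26.6% and 26.3% of all genes, and the risers numbered 2 to 4 with 1 library left out. TXNIP is on this list and on that of the MLX arm.

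The proteins through which the network acts were mixed. Of 18 corepressors and partners of MXD, MNT, MGA and MIZ1, asparaginase raised 3 in Nalm6 (SIN3B by 0.60, RYBP by 0.39 and NCOR1 by 0.38) and lowered 10, led by TFDP1 (-0.67), a dimer partner of E2F, and WDR5 (-0.57). The combination likewise raised 3 and lowered 10. The risers numbered 5 in each after rescaling to a constant sum. Of all genes, 28.2% and 32.4% rose and 28.0% and 31.3% fell. In Sem 8 of 18 fell with ibrutinib and 9 with the combination, beside 21.3% and 26.3% of all genes, and TFDP1 fell by 0.33 and 0.62. The 8 became 3 after rescaling to a constant sum, 5 under quantile normalisation and 4 to 9 with 1 library left out. Of 16 coactivators, the combination raised 4 and lowered 8 in Nalm6 (5 lower after rescaling to a constant sum or quantile normalisation, 2 to 5 higher with 1 library left out) and raised 5 and lowered 5 in Sem (3 to 6 higher with 1 library left out). Of all genes, 32.4% rose and 31.3% fell with the combination in Nalm6, and 26.6% rose and 26.3% fell in Sem. RUVBL1, a helicase of the TIP60 complex, fell by 0.83 and 0.57, and the acetyltransferases CREBBP and EP300 rose by 0.83 and 0.69 in Nalm6 and by 0.54 and 0.27 in Sem.

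Of 21 genes for enzymes that set how long MYC protein lasts, 12 fell and 5 rose with asparaginase in Nalm6, beside 28.0% and 28.2% of all genes; the 12 became 7 after rescaling to a constant sum. SKP2, a ubiquitin ligase subunit for MYC, fell by 0.90, CIP2A, which shields MYC from a phosphatase, by 0.99, and AURKA by 0.69. GSK3B, the kinase that marks MYC for decay, rose by 0.52, and by 0.58 with the combination; in Sem it rose by 0.19, 0.23 and 0.29 with ibrutinib, asparaginase and both. FBXW7, the ligase that reads the GSK3B mark, was called in none of the 6 comparisons (0.11 with asparaginase in Nalm6, adjusted p = 0.119). MYC protein was not measured.

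Few markers of other cell types passed the filter, but TRAC averaged 93.3 FPKM in untreated Sem and XBP1 108 FPKM in untreated Nalm6. Of 10 myeloid markers, LYZ passed the filter in Nalm6 and LYZ with CSF1R in Sem; S100A8, S100A9, FCGR3A and ELANE had no read. The summed level of the list in Nalm6 was 12.3 to 14.6 FPKM untreated, 7.18 to 9.27 with ibrutinib, 4.23 to 4.56 with asparaginase and 7.24 to 8.0 with both; in Sem it was 5.04 to 6.21, 2.19 to 3.18, 3.63 to 3.91 and 1.86 to 2.45. Of 10 T and NK cell markers, TRAC and NKG7 passed in each line; the sum in Sem was 110 to 124 FPKM untreated, 84.5 to 91.9 with ibrutinib, 103 to 105 with asparaginase and 97.2 to 100 with both, and CD3D, CD3E, CD8B and KLRD1 had no read. In Nalm6 that sum was 5.18 to 6.15, 1.75 to 2.71, 8.16 to 12 and 4.44 to 6.63 in the same order. Of 9 plasma and mature B cell markers, 3 passed in Nalm6 and 2 in Sem. Their sum in Nalm6 was 155 to 168 FPKM untreated, 139 to 144 with ibrutinib, 118 to 129 with asparaginase and 119 to 126 with both. In Sem it was 103 to 107, 88.7 to 92.7, 107 to 115 and 94.8 to 102 in the same order. Of 11 erythroid and stromal markers, 0 passed in Nalm6 and 1 in Sem, PECAM1, which averaged 3.1, 6.1, 3.15 and 5.74 FPKM in the Sem groups. The part of these lists in the member values was not tested. Mitochondrial reads were 3.58% to 3.91% of a library in untreated Nalm6, 3.58% to 3.81% with ibrutinib, 4.50% to 4.81% with asparaginase and 4.30% to 4.67% with both, and 2.35% to 2.81% in Sem; their part was not tested either.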

How the data were processed

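RNA-seq of 24 libraries was aligned with STAR after trimming with fastp and counted with featureCounts on hg38, per the submitters' processing notes, which give no versions. Whether counting used strand is not stated. The authors deposited FPKM per gene in 1 table, in which 21.2% of values had lost the decimal point; these were not usable as deposited. FPKM times gene length is a whole multiple of what 1 read is worth, to within 9.1e-13 reads over 206596 intact values. The damaged values were restored to the power of 10 that gave whole reads and the likeliest spread between libraries. The rule also favoured small drug effects and small departures from additivity. Its scales, in log10 units, were 0.1 for ibrutinib, 0.13 for asparaginase and 0.08 for the departure. Under this rule 0.211% of the damaged values had a probability under 0.99. Because the deposited columns were damaged they were treated as another unit, not as FPKM, until restored.

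Genes with at least 1 FPKM in 3 libraries were fitted with limma 3.58.1 (R 4.3.3, trend on) on log2(FPKM + 1), which understates changes of low genes: 12 libraries per line within a line, 24 between lines, Benjamini-Hochberg over all genes, 16 comparisons. Fits were also run on simulated reads. These held no ibrutinib effect and no deviation shared between libraries, so they do not measure how reliable the calls here are. Figures and tables used Python 3.11.15. Coordinates are GRCh38 and matched GENCODE 29 for all members; promoters are RefSeq. Alternatives were a pseudocount of 0.1, no filter, rescaling to a constant FPKM sum (TPM), quantile normalisation, limma-voom on recovered reads, removal of a gene length trend, a replicate block, another restoration rule, both lines in 1 fit and leaving out each library. The members and lists were chosen with earlier results of these data known. Named genes were the 10 members, MLXIP, TXNIP and ARRDC4, the genes of each list with the largest called changes, the 5 most like and the 5 most opposite to MYC, and genes whose exons overlap a member; the other list genes named were chosen after their values were seen. The deviations of same-numbered libraries of different groups correlated at -0.192 to 0.374 in Nalm6 (4 of 18 pairs over 0.1) and -0.03 to 0.106 in Sem (1 of 18). Differently numbered libraries gave -0.263 to 0.304 in Nalm6 (8 of 36 pairs over 0.1) and -0.109 to 0.09 in Sem (0 of 36). Nalm6 asparaginase and combination were the groups in which all 3 same-numbered pairs were over 0.1, a pairing read from the data and not from the labels. Libraries 2 and 3 of these groups were also over 0.1 when differently numbered, so this pairing is uncertain. For these groups a fit with the number as a block over their 6 libraries was added.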

Additional observations from a re-analysis of the deposited data

Results flagged for a closer look

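The response to a drug differed between the lines, by limma's test of that difference over 24 libraries, in 13 cases. Each value is the change in Sem minus the change in Nalm6 on the log2 scale. For ibrutinib these were MXD4 (0.61, adjusted p = 0.000152), MXI1 (0.26, adjusted p = 0.0358) and MLX (-0.24, adjusted p = 0.0337); the latter pair lost the call without the expression filter and in 8 of 12 repeats with 1 library left out. MYC, at 0.33 (adjusted p = 0.0623), was not called.

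For asparaginase they were MYC (0.60, adjusted p = 0.00042), MAX (-0.205, adjusted p = 0.00168), MXD1 (-0.57, adjusted p = 0.00167), MXD3 (-0.75, adjusted p = 5.93e-05), MXD4 (-0.535, adjusted p = 0.000191) and MXI1 (-0.31, adjusted p = 0.00565). For the combination they were MYC (1.33, adjusted p = 2.1e-08), MAX (-0.205, adjusted p = 0.00129), MXD3 (-0.74, adjusted p = 4.03e-05) and MXI1 (-0.34, adjusted p = 0.00187). The comparisons for the 3 treatments share the untreated libraries of each line. Members called were 3, 6 and 4 of 9 for ibrutinib, asparaginase and the combination, where 13.7%, 33.5% and 40.8% of all genes were called.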

How the results depend on the processing

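Of 870 values of the members' changes under another setting, 820 kept direction and side of the threshold, 22 lost the call, 19 gained it and 9 turned sign. Of 678 with 1 library left out these were 608, 63, 4 and 3. Every tested member entered this tally for the drug comparisons against untreated. In the other comparisons only MYC and members called in the main fit did, so calls gained there by other members are not counted. Without the filter every gene with a read in any library of the fit enters the adjustment. Members called then fell to 2 for Sem asparaginase, 1 for the Sem combination against ibrutinib, 0 for the Sem departure from additivity and 1 for the ibrutinib difference between lines. They rose to 2 for the Sem departure under quantile normalisation, and to 1 for the Nalm6 departure with limma-voom and with both lines in 1 fit. With 1 library left out the counts ran from 2 to 4 for the Nalm6 combination against asparaginase (2 without combination library 2), from 2 to 4 for Sem asparaginase, from 0 to 1 for the Sem departure, stood at 1 throughout for the Sem combination against ibrutinib, and ran from 1 to 3 for the ibrutinib difference. MAX turned to 0.031 (constant sum) and 0.04 (quantile) for Nalm6 ibrutinib, 0.016 (quantile) for Sem ibrutinib, 0.043 and 0.033 for Sem asparaginase, and 0.014 and 0.085 for the Sem combination. MYC in the Sem combination against ibrutinib turned to 0.001 and 0.018, and ran from -0.011 to 0.004 with 1 library left out, as did MXD1 in Sem asparaginase from -0.003 to 0.118. ARRDC4 in the Nalm6 combination was -0.138 under quantile normalisation, -0.001 without untreated library 1 and -0.002 without combination library 2 (range -0.002 to 0.164), and with ibrutinib 0.007 without untreated library 3 (range -0.159 to 0.007). With decimal places set by the smallest spread, TFRC turned to 1.467 and 1.134 and NME1 to 1.513 and 0.739 in Nalm6 asparaginase and combination. The cause of these turns was not tested.

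Rescaling to a constant sum moved the median of all genes to 0.171 and 0.188 for Nalm6 asparaginase and combination, 0.131 for the Nalm6 combination against ibrutinib and 0.112 for the Sem combination. MGA was called under it in 5 comparisons, at 0.236 to 0.282, the lowest and highest. The share of called genes that were higher went from 40.0% to 70.4%, 50.2% to 66.6% and 50.9% to 64.6% for ibrutinib, asparaginase and combination in Nalm6 (55.2% for ibrutinib under quantile normalisation), and from 48.8% to 65.8%, 43.0% to 70.1% and 50.3% to 62.9% in Sem. It went from 51.6% to 61.9% for the Nalm6 combination against ibrutinib, and for the departure from 53.8% to 34.9% in Nalm6 and 49.8% to 16.6% in Sem (36.9% under quantile normalisation). Genes called for Nalm6 ibrutinib were 1646, and 1056 without the filter, 854 under quantile normalisation and 2507 with both lines in 1 fit; for the departure they were 738 and 1361 (both lines) in Nalm6, and 205, 409 (constant sum), 576 (limma-voom) and 136 (no filter) in Sem. A replicate block raised the members called to 3 for the Sem combination against ibrutinib, 4 for the ibrutinib difference and 5 for the combination difference between lines, and left the other counts as they were; over the Nalm6 asparaginase and combination libraries alone, a block added after seeing the data, 4 members were called as without it.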
